A study of Mus with 3 samples.

Results

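The lamins and their partners at the nuclear envelope, Lmna, Lmnb1, Lmnb2, Lbr, Emd, Sun1 and Sun2, are 7 genes chosen by name from the 32285 genes of a single-cell RNA library, and their levels are described across the T cells, macrophages and MC38 or stromal cells of 3 tumors. Lamins are the filament proteins that line the inner face of the nuclear envelope. Lmna encodes the A-type lamins A and C, whose amount follows the stiffness of a tissue and which set how easily a nucleus is deformed in a narrow passage. Lmnb1 and Lmnb2 encode the B-type lamins, which stay attached to the membrane, and Lbr encodes the lamin B receptor, an inner membrane protein that tethers heterochromatin to the B-type lamins. Emd encodes emerin, an inner membrane protein that binds A-type lamins, and Sun1 and Sun2 encode the inner membrane side of the bridge that links the lamina to the cytoskeleton through nesprins. In lymphocytes, A-type lamins are known to rise on activation, and mature neutrophils are known for a lobed nucleus that is poor in A-type lamins.

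The tumors were grown from MC38, a mouse colon carcinoma line, and were taken on day 16 from mice of 3 genotypes, named WT, RARα-KO and RARα-TG. In RARα-KO mice (dLck-Cre with floxed Rara) T cells lose a part of Rara to a Cre that the distal promoter of Lck drives. In RARα-TG mice (CD2-Rara) a transgene under CD2 elements adds Rara in all T cells. The control strains were C57BL/6 and dLck-Cre mice, and which of them gave the WT tumor and the number of mice behind each suspension are not given in the sources used here. The study's methods give a range of ages, that of young adult mice of both sexes, for most of its experiments, and no age for this one. The same MC38 line was injected in all groups. Each suspension was stained with its own hashtag antibody. From each genotype 30000 sorted T cells (CD45.2+ CD3+) and 10000 total cells were pooled into 1 library, so a share of cells in a class is set partly by the sort. The tissue and cell type fields of the labels name spleen and naive CD8 T cells, while the protocol describes tumors, and the protocol was followed. The 3 genotypes are therefore 3 samples, each without a replicate, and no test between genotypes was possible.

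The library held 5585 cells with a median of 4823 UMIs, of which 4925 were given to 1 genotype by their hashtag (1927 WT, 2103 RARα-KO and 895 RARα-TG cells, with 17766060, 16191256 and 4011140 UMIs). Rara, the targeted gene, stood at 87.2 CPM (counts scaled to a library of 1000000 UMIs) in WT T cells, at 80.0 CPM in RARα-KO T cells and at 255 CPM in RARα-TG T cells. The level was thus highest in the tumor labelled RARα-TG, and the 5′ reads did not check the deletion, since the transcript of the deleted allele is still counted. CTLs were cells of T cell clusters with a UMI of Cd8a and none of Cd4 (842 WT, 1180 RARα-KO and 104 RARα-TG cells), and CD4 T cells had a UMI of Cd4 and none of Cd8a or Cd8b1 (216, 245 and 261 cells). T cells that met neither gate are called ungated (388, 291 and 406 cells). The macrophages were 1 cluster led by Arg1, C1qb and Pf4 (77, 130 and 39 cells) in which all 10 macrophage markers were counted. The cluster called MC38 or stromal cells was led by Ccn1, Has1 and Col3a1 (272, 127 and 19 cells). It held 25232 UMIs of Sparc and 17783 of Col3a1 but 2 of Epcam, 2 of Krt8 and 0 of Krt18, so its markers do not separate carcinoma cells from stroma and the name MC38 alone is not used. The intervals below are exact, at the 95% level, and cover counting error only, not the spread between mice.

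Lmna, the gene of the A-type lamins, had its lowest level in the RARα-KO tumor and its highest in the RARα-TG tumor, in CTLs, in CD4 T cells with and without Foxp3, in ungated T cells and in macrophages. It was the 1 member called lower in RARα-KO in each of these classes. In CTLs it stood at 218 CPM in WT (interval 206 to 231, 1224 UMIs), at 98.0 CPM in RARα-KO (91.3 to 105, 795 UMIs) and at 401 CPM in RARα-TG (348 to 459, 206 UMIs). The 3 intervals did not overlap. Against WT the log2 ratio of RARα-KO was -1.16 (-1.29 to -1.03), a level 2.23-fold lower, and that of RARα-TG was 0.87 (0.65 to 1.09), a level 1.83-fold higher. The RARα-TG level was 4.09 times the RARα-KO level. Of the 6572 genes compared in CTLs between RARα-KO and WT, 47 had a lower ratio than Lmna. Of the 6503 compared between RARα-TG and WT, 415 had a higher one. With each cell thinned to 1000 UMIs the RARα-TG ratio was 0.55, which is no longer past a fold of 1.5, and with each clonotype (the cells that share a T cell receptor) weighted equally it was 1.26.

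A gene was called where its ratio passed a fold of 1.5 and the interval of the ratio excluded 0, among genes with at least 0.1 UMIs per cell in either genotype. By this rule 1 of the 6 members compared in RARα-KO CTLs was lower, which was Lmna, against 2.59% of all genes, and 0 were higher (4.11% of all genes). In RARα-TG CTLs 1 of 6 was higher, again Lmna (9.95% of all genes), and 0 were lower (8.66% of all genes). Lmnb2 fell below the filter in both. The median log2 ratio over the 7 members was -0.26 in RARα-KO (0.02 over all genes) and 0.29 in RARα-TG (-0.00 over all genes). Since the members were chosen with results of these tumors known, these counts describe the members and do not set them apart from other genes.

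**Figure D1:**
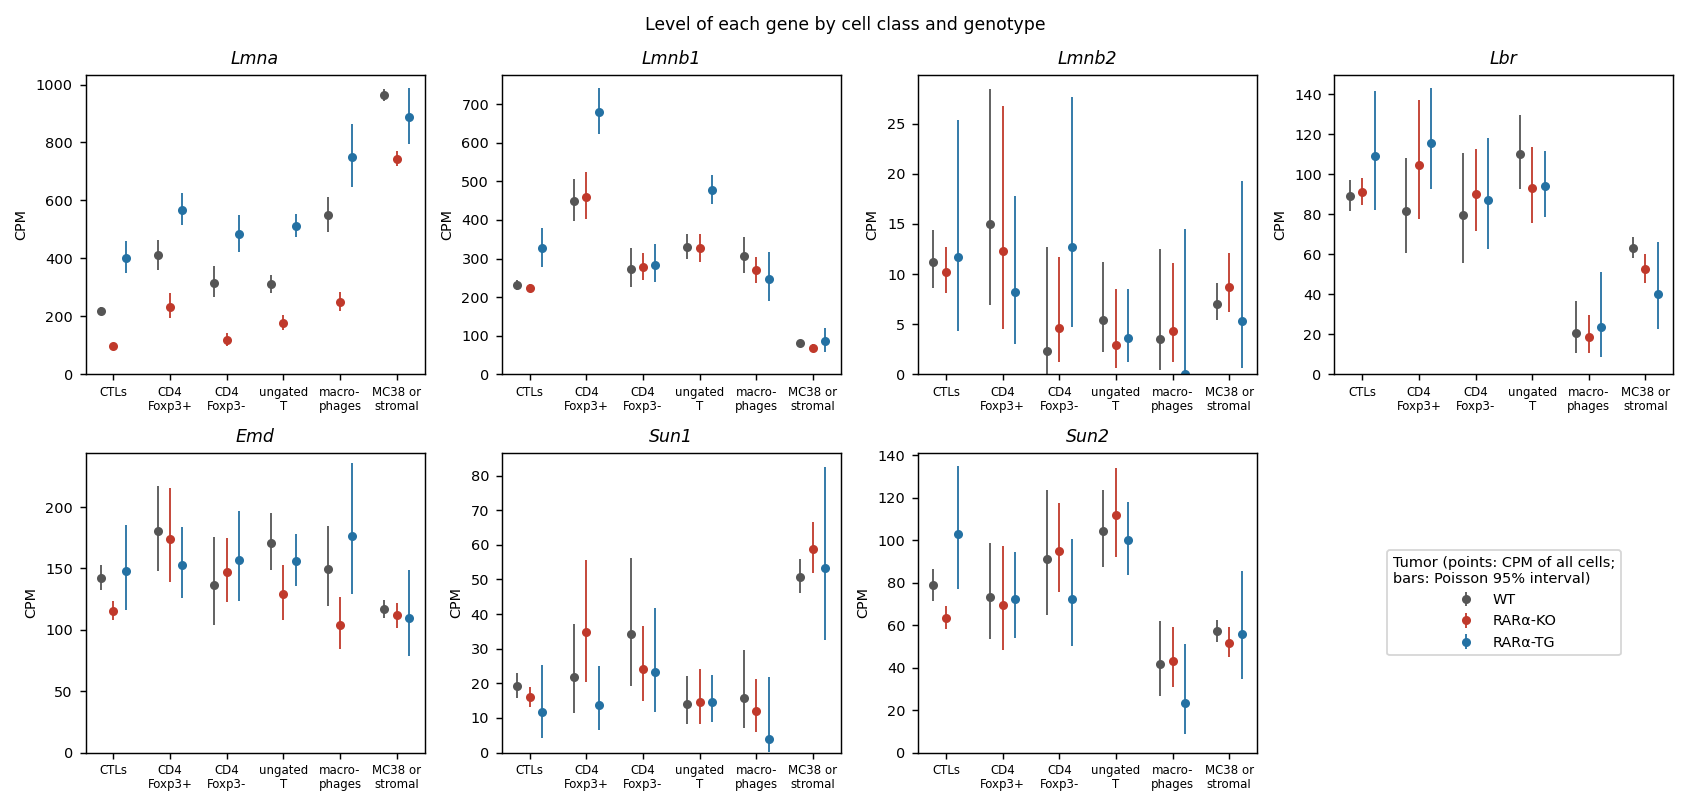
CPM of the 7 genes (1 panel each, linear axis from 0) in 6 cell classes of the WT, RARα-KO and RARα-TG tumors, with Poisson 95% intervals. Lmna has RARα-KO lowest in each class and RARα-TG highest in all but the MC38 or stromal cells, while the genotypes mostly overlap for Lmnb2, Lbr, Sun1 and Sun2.

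The same order was seen in CD4 T cells. Lmna stood at 370 CPM in WT (334 to 409) against 159 CPM in RARα-KO (139 to 182), with 535 CPM in RARα-TG (494 to 578), again with no overlap of the intervals. The log2 ratio of RARα-KO to WT was -1.22 (-1.47 to -0.97), and Lmna was the 1 member of 6 called lower (6.06% of all genes), with 0 higher (3.41%). The ratio of RARα-TG to WT was 0.53 (0.35 to 0.72), which is within a fold of 1.5, and 0 of 6 members were called higher (4.82% of all genes) and 0 lower (4.91%). CD4 T cells with Foxp3, the factor that marks regulatory T cells, had 410 CPM of Lmna in WT and 233 and 568 CPM in the KO and TG tumors. Those without Foxp3 had 316, 118 and 484 CPM. In both subsets the RARα-KO level was below and the RARα-TG level above that of WT without overlap, with log2 ratios of -0.81 and 0.47 where Foxp3 was counted and of -1.42 and 0.61 where it was not. The RARα-KO ratio was called in both (3.69% and 6.68% of all genes lower), while 0 members were higher (3.63% and 3.14%). The ratio of Lmna in RARα-TG was called only in cells without Foxp3 (4.19% of all genes higher), with 0 members lower in either subset (4.63% and 4.92%). Whether the subsets differ in their ratios was not tested. Taken as a mean within T cell clusters, an alternative added after seeing the data, the RARα-KO ratio of Lmna in all CD4 T cells was -0.33, and with each clonotype weighted equally it was -0.79.

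In ungated T cells Lmna stood at 312 CPM in WT against 178 CPM in RARα-KO, with 512 CPM in RARα-TG. The intervals did not overlap, and both ratios, -0.81 (-1.07 to -0.56) and 0.72 (0.54 to 0.90), were called (5.44% of all genes lower in RARα-KO and 6.99% higher in RARα-TG), and 0 members were called the other way (4.51% higher in RARα-KO and 6.28% lower in RARα-TG).

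Macrophages showed the order of T cells, although the Cre and the transgene are driven by T cell promoters. Lmna stood at 548 CPM in WT (490 to 612) against 249 CPM in RARα-KO (218 to 283), with 750 CPM in RARα-TG (647 to 864). The intervals did not overlap. The log2 ratio was -1.14 in RARα-KO (-1.39 to -0.89; called, against 6.16% of all genes) and 0.45 in RARα-TG (0.18 to 0.71; not called, 6.58% of all genes), and 0 members were higher in RARα-KO (6.38%) or lower in RARα-TG (6.65%). Thinned to 1000 UMIs, the RARα-TG ratio was 0.12. Rara in the same cells stood at 83.3, 61.7 and 98.1 CPM, with both intervals of its ratio holding 0. The macrophages differed in more than lamins. Their summed macrophage markers stood at 16377 CPM in WT against 9859 CPM in RARα-KO, with 18033 CPM in RARα-TG, 8.46% of the RARα-KO cells carried a T cell receptor clonotype against 2.60% in WT and 2.56% in RARα-TG, and 4 of 7 cell cycle genes compared were lower in RARα-KO (Mki67, Birc5, Cdk1 and Tyms, each with 18 or fewer UMIs in WT). What these differences contribute to the Lmna levels was not tested. In macrophages with no clonotype and no T cell UMIs, the RARα-KO ratio was -0.99, in a comparison chosen after seeing the data.

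In MC38 or stromal cells Lmna was abundant in all 3 tumors, and the difference between genotypes was small. It stood at 965 CPM in WT (944 to 985) against 743 CPM in RARα-KO (718 to 770), with 889 CPM in RARα-TG (796 to 990). The RARα-KO level was below that of WT without overlap, at a log2 ratio of -0.38 (-0.44 to -0.32) that is within a fold of 1.5, while the RARα-TG and WT intervals overlapped. Of the 7 members, 0 were called in these cells (2.35% of all genes lower and 4.75% higher in RARα-KO, and 4.75% lower and 5.44% higher in RARα-TG).

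The plot of ratios sets the members side by side. Over CTLs, CD4 T cells, ungated T cells and macrophages, 4102 genes passed the filter in all 4 classes. Of these, 39 genes (0.951%) were lower in RARα-KO and higher in RARα-TG than in WT by value in all 4, Lmna among them. By the fold rule 11 genes (0.268%) were lower in RARα-KO in all 4 classes, namely Uap1, Lmna, Areg, Trim12a, Rgs10, Nt5e, Rpl29, Socs2, Cd83, Hmgcs1 and Gm47283. Both directions with every interval excluding 0 were found for 4 genes (0.0975%), namely Cebpb, Lmna, Areg and Crip1. The pattern counted here is the one described above for Lmna, a gene chosen with results of these tumors known. These shares therefore describe the pattern and do not set Lmna apart. MC38 or stromal cells, where the RARα-TG ratio of Lmna was -0.12, were not among the 4 classes. The classes share the control tumor and the library, so they are not independent of each other.

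**Figure D2:**
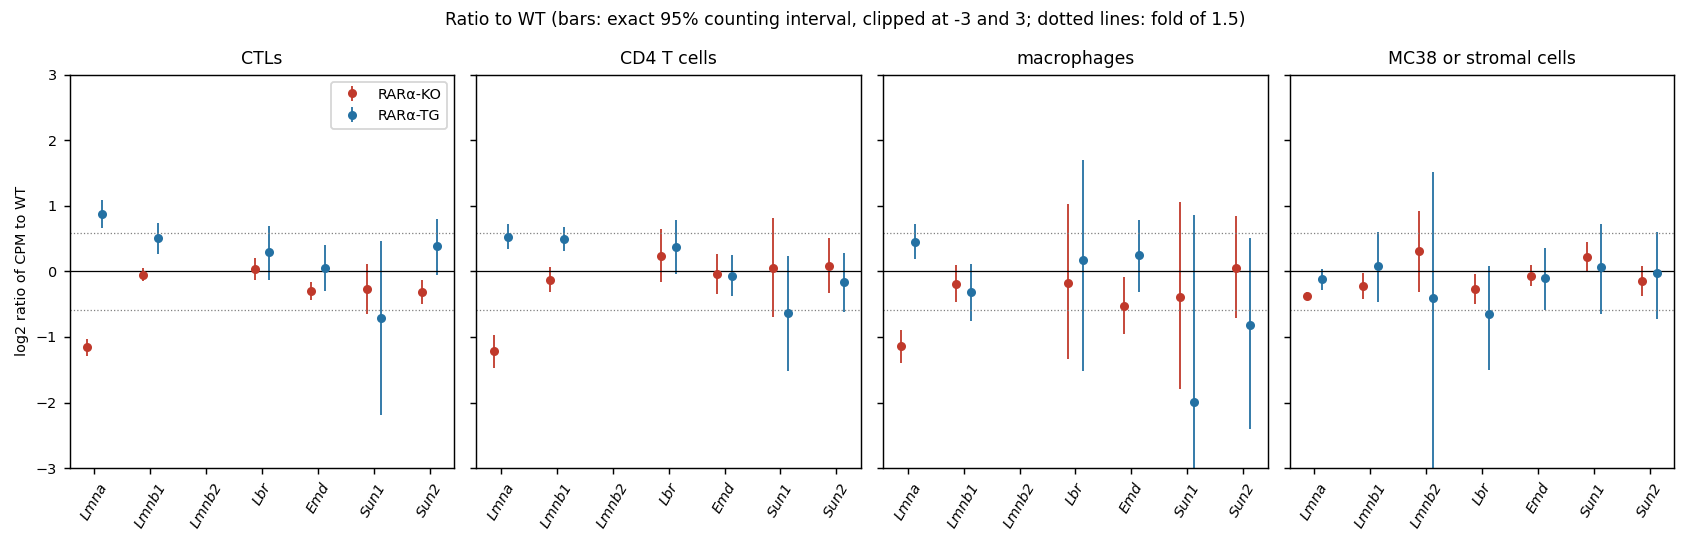
Log2 ratio of CPM to WT for the members in CTLs, CD4 T cells, macrophages and MC38 or stromal cells, with exact 95% counting intervals and dotted lines at a fold of 1.5; genes under the filter are left out. Lmna in RARα-KO lies at -1.16, -1.22 and -1.14 in the first 3 classes and at -0.38 in the last, while Lmnb1 in RARα-KO lies between -0.22 and -0.05.

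The share of CTLs with a UMI of Lmna was 44.3% in WT against 26.3% in RARα-KO, with 62.5% in RARα-TG. After each cell was thinned to 1000 UMIs it was 16.4% (14.0 to 19.1), 6.79% (5.42 to 8.38) and 24.5% (16.5 to 34.0), with the order of the genotypes unchanged. The neutrophil-like cluster, where little Lmna is known, had 4 of 57 cells with a UMI (7.02%) at a median of 1939 UMIs. The listed MC38 or stromal markers (keratins, Epcam, collagens, Dcn, Gsn and Sparc) summed to 20.3 CPM in WT CTLs and to 23.7 and 54.5 CPM in those of the KO and TG tumors. Over the 3 tumors most of these UMIs were of Gsn (219) and Epcam (64), and Epcam was nearly absent from the MC38 or stromal cluster. Had all the listed markers been free RNA of that cluster, it would have carried 3.42, 3.98 and 9.15 CPM of Lmna, against the 218, 98.0 and 401 CPM counted. In macrophages the same reckoning gave 51.3, 39.3 and 40.9 CPM, against the 548, 249 and 750 CPM counted.

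The B-type lamins did not follow Lmna in the T cell classes or the macrophages of RARα-KO. Lmnb1 stood at 231 CPM in WT CTLs (218 to 244), 223 CPM in RARα-KO (213 to 234) and 327 CPM in RARα-TG (279 to 380). WT and RARα-KO overlapped, with a log2 ratio of -0.05 (-0.15 to 0.06), and RARα-TG was higher than both, at 0.50 over WT (0.26 to 0.73), within a fold of 1.5. In CD4 T cells Lmnb1 stood at 374, 343 and 526 CPM, with a ratio of -0.12 (-0.32 to 0.07) for RARα-KO and one of 0.49 (0.31 to 0.68) for RARα-TG. In CD4 T cells with Foxp3 it stood at 449, 461 and 681 CPM, and there the RARα-TG ratio of 0.60 (0.38 to 0.82) was called (5.89% of all genes higher). In CD4 T cells without Foxp3 it stood at 273, 278 and 284 CPM, and the 3 intervals overlapped. Lmnb1 was thus higher in RARα-TG in CTLs and in the CD4 T cells with Foxp3, and about level with WT in those without.

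In macrophages Lmnb1 stood at 307 CPM in WT and at 270 and 247 CPM in the KO and TG tumors, and both intervals of the ratio held 0. Lmnb2 was counted sparsely, with 63, 83 and 6 UMIs in CTLs (11.2, 10.2 and 11.7 CPM) and 2, 4 and 0 UMIs in macrophages. The genotypes overlapped in every class, and a difference of Lmnb2 between them was not detectable at this depth.

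A ratio of Lmna to the summed B-type lamin UMIs within the same cells does not depend on the total by which CPM is scaled. In CTLs it was 0.903 in WT (0.835 to 0.976) against 0.420 in RARα-KO (0.386 to 0.456), with 1.18 in RARα-TG (0.963 to 1.46). RARα-KO stood apart from both other tumors, while the WT and RARα-TG intervals overlapped narrowly. In CTLs without a UMI of Mki67 or Top2a, WT and RARα-TG were level, at 1.16 (1.05 to 1.28) and 1.16 (0.913 to 1.49). In those with such a UMI they were apart, at 0.593 (0.519 to 0.676) and 1.24 (0.826 to 1.87). In CD4 T cells the ratio was 0.965, 0.454 and 0.998, so RARα-TG and WT were level there, Lmnb1 being higher along with Lmna. In CD4 T cells with Foxp3 it was 0.885, 0.494 and 0.824, and in those without it was 1.15, 0.417 and 1.63. In macrophages it was 1.77 (1.47 to 2.13), 0.909 (0.757 to 1.09) and 3.03 (2.27 to 4.10), all apart. In MC38 or stromal cells it was 11.0, 9.58 and 9.79 with overlapping intervals, and even the lowest of these was well above every T cell and macrophage value.

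**Figure D3:**
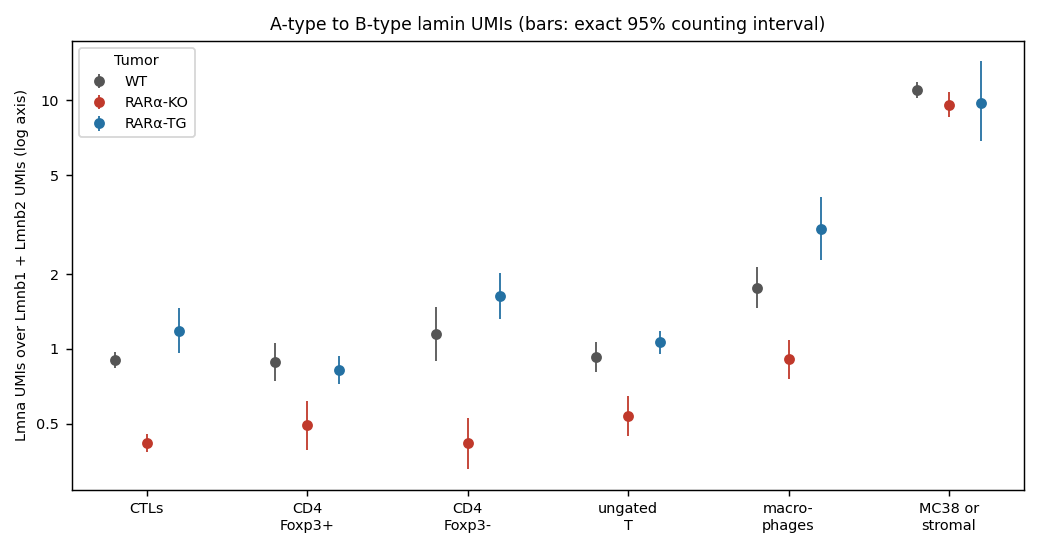
UMIs of Lmna over the summed UMIs of Lmnb1 and Lmnb2 (log axis) in 6 cell classes of the 3 tumors, with exact 95% counting intervals. RARα-KO lies lowest in each class, near 0.42 to 0.54 in T cells and 0.909 in macrophages, and the MC38 or stromal cells lie at 9.58 to 11.0.

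Lbr did not differ between the tumors in T cells beyond its counting error. It stood at 89.1 CPM in WT CTLs (81.4 to 97.2), 91.2 CPM in RARα-KO (84.8 to 98.0) and 109 CPM in RARα-TG (82.3 to 141), and the intervals overlapped. It stood at 80.8, 95.3 and 104 CPM in CD4 T cells, also with overlap. In MC38 or stromal cells it stood at 63.1 CPM in WT against 52.5 CPM in RARα-KO, with 40.0 CPM in RARα-TG, where the RARα-KO ratio of -0.26 (-0.50 to -0.04) was small and the RARα-TG value rested on 15 UMIs.

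Emd was somewhat lower in RARα-KO CTLs, at 142 CPM in WT (133 to 152) against 116 CPM in RARα-KO (108 to 123), with 148 CPM in RARα-TG (116 to 185). RARα-KO lay below WT without overlap, at a log2 ratio of -0.30 (-0.44 to -0.16), and RARα-TG overlapped with both. In ungated T cells (171, 129 and 156 CPM) and in macrophages (149, 104 and 177 CPM) the RARα-KO ratios were -0.40 (-0.72 to -0.09) and -0.52 (-0.96 to -0.08). Emd was level in CD4 T cells, at 162, 157 and 154 CPM. All of these were within a fold of 1.5.

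Of the SUN proteins, Sun2 stood at 78.7 CPM in WT CTLs (71.5 to 86.4), 63.4 CPM in RARα-KO (58.0 to 69.1) and 103 CPM in RARα-TG (77.2 to 135). RARα-KO lay below both other tumors, at -0.31 to WT (-0.50 to -0.13), within a fold of 1.5, and RARα-TG overlapped with WT. CD4 T cells had 80.8, 85.8 and 72.1 CPM of Sun2 with full overlap. Sun1 was sparse in T cells, at 19.1, 15.9 and 11.7 CPM in CTLs, and the intervals of its ratios to WT held 0 in each class. In CD4 T cells with Foxp3 it was lower in RARα-TG (13.6 CPM, 10 UMIs) than in RARα-KO (34.8 CPM, 17 UMIs), at a log2 ratio of -1.35 (-2.64 to -0.14). In MC38 or stromal cells Sun1 stood at 50.8, 58.9 and 53.4 CPM, also with overlap.

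T cells of the 3 tumors fell into different states, so the members were also compared inside the 11 T cell clusters, which were built without the members and without receptor genes. In RARα-KO, 9 clusters held at least 20 cells of both genotypes. Lmna was below WT in 8 of the 9, each with an interval below 0, and the log2 ratio ranged from -1.69 to 0.09 with a median of -0.85. The lowest was cluster 3, led by the granzyme genes Gzmg, Gzmd and Gzmf, where Lmna stood at 146 CPM in WT (261 cells) and 45.1 CPM in RARα-KO (89 cells). The exception was cluster 6, led by Klra7, Tdrp and Patj and with the naive and memory regulator Tcf7 among its leading genes, at 131 CPM in WT (107 to 158) against 140 CPM in RARα-KO (107 to 180), with 241 CPM in RARα-TG (205 to 282). In that cluster WT and RARα-KO overlapped and RARα-TG was higher. In RARα-TG, 6 clusters could be compared, and Lmna was above WT in 5 of them, each with an interval above 0. The exception was cluster 16, led by Pcsk1, Il22 and Il10, with 759 CPM in WT (30 cells) and 623 CPM in RARα-TG (278 cells), a ratio of -0.28 (-0.58 to 0.02).

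Lmnb1 in RARα-TG was above WT in 6 of 6 clusters, with all 6 intervals above 0 and ratios from 0.43 to 0.73. In RARα-KO it was above WT in 6 of 9 clusters, with 1 interval above 0 (cluster 6, 414 against 174 CPM) and 1 below (cluster 3, 120 against 190 CPM). Emd in RARα-KO was below WT in 8 of 9 clusters, but 1 interval excluded 0. For Lbr, no interval excluded 0 in any cluster of either genotype, and Sun2 had 1 such interval in RARα-TG and 0 in RARα-KO.

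**Figure D4:**
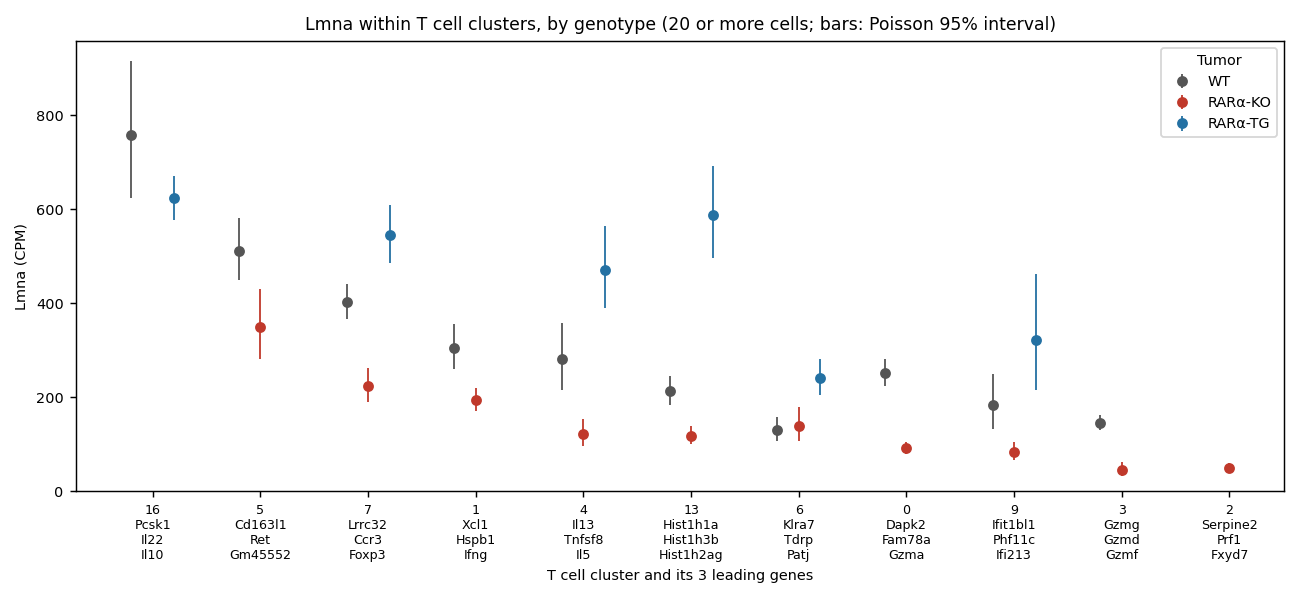
CPM of Lmna (linear axis from 0) in the 11 T cell clusters, ordered by their level over all cells and named by number and 3 leading genes, for each genotype with 20 or more cells; bars are Poisson 95% intervals. RARα-KO lies below WT in 8 of 9 clusters with both, and RARα-TG above WT in 5 of 6.

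Within WT alone Lmna differed several-fold between T cell states. The highest level, 759 CPM (624 to 915), was in cluster 16, and the next was 512 CPM (450 to 581) in cluster 5, a CD8 cluster led by Cd163l1 and Ret. Cluster 7, led by Lrrc32, Ccr3 and Foxp3, had 403 CPM (367 to 442), and these 3 levels were apart from each other. The lowest were 131 CPM in cluster 6 and 146 CPM in cluster 3, which overlapped. Cluster 13, led by histone genes, had 213 CPM of Lmna and 501 CPM of Lmnb1 in WT. In the same tumor the ratio of Lmna to B-type lamins was 0.410 in cluster 13 (0.345 to 0.486) and 0.539 in cluster 9 (0.360 to 0.799), led by interferon-induced genes, against 1.52 in cluster 5 (1.24 to 1.86) and 2.12 in cluster 16 (on 110 and 52 UMIs). Cluster 2, led by Serpine2 and Prf1, held 260 RARα-KO cells of 278. Within RARα-KO it stood at 49.3 CPM of Lmna and 107 CPM of Lmnb1, which overlapped with the 45.1 and 120 CPM of cluster 3.

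Set against CTLs of the same 3 tumors, MC38 or stromal cells had higher Lmna (743 to 965 against 98.0 to 401 CPM) and higher Sun1 (50.8 to 58.9 against 11.7 to 19.1 CPM), and in both the ranges over the 3 tumors were apart. These were 2 of the 7 members, against 37.7% of all genes apart in that direction. Lmnb1 (68.9 to 85.4 against 223 to 327 CPM), Lmnb2, Lbr (40.0 to 63.1 against 89.1 to 109 CPM) and Sun2 were lower with ranges apart, 4 of 7 members against 24.5% of all genes, although for Lmnb2 the intervals of the RARα-KO and RARα-TG ratios held 0. Emd was lower in each tumor but its ranges overlapped. Median depth per cell differed widely, at 30004 UMIs in WT MC38 or stromal cells and 5666 in WT CTLs.

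Macrophages against CTLs had 2 of 6 members compared lower with ranges apart, Lbr (18.4 to 23.5 against 89.1 to 109 CPM) and Sun2 (23.5 to 43.3 against 63.4 to 103 CPM), against 39.7% of all genes. Lmna was higher in macrophages in each tumor, but its ranges overlapped, since the RARα-KO macrophages (249 CPM) lay below the RARα-TG CTLs (401 CPM). MC38 or stromal cells against macrophages had Lbr, Sun1 and Sun2 higher with ranges apart (43.9% of all genes) and Lmnb1 lower (16.2% of all genes). The intervals of the ratio held 0 for Sun2 in each tumor and for Lbr in RARα-TG. Lmnb2 passed the filter of this comparison through the MC38 or stromal cells alone and is not counted, since macrophages had 6 UMIs of it. CD4 T cells against CTLs had Lmnb1 (343 to 526 against 223 to 327 CPM) and Emd (154 to 162 against 116 to 148 CPM) higher with ranges apart, 2 of 6 against 22.2% of all genes, and Lmna higher in each tumor with overlapping ranges. For Emd the intervals of the WT and RARα-TG ratios held 0. Among CD4 T cells, those with Foxp3 had more Lmnb1 than those without (449 to 681 against 273 to 284 CPM), the 1 of 6 members with ranges apart in that direction (14.1% of all genes). Ranges apart are common among all genes in these comparisons, so the counts say little of the members as a group.

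Cells in cycle were taken as those with a UMI of Mki67, a proliferation marker, or Top2a, the topoisomerase of dividing cells. In cycling CTLs Lmnb1 stood at 318, 332 and 414 CPM in the WT, RARα-KO and RARα-TG tumors, against 189, 182 and 302.8 CPM in the other CTLs. The ranges were apart, as they were for Lbr (121, 144 and 153 against 73.8, 71.2 and 96.8 CPM), 2 of the 7 members against 14.3% of all genes, although in RARα-TG both intervals of the ratio held 0. Lmnb2, which passed the filter through the cycling cells alone, was higher in cycling CTLs of WT (log2 ratio 1.01, 0.25 to 1.77). It was also higher in those of RARα-KO (1.78, 1.13 to 2.45), but its ranges overlapped, as cycling RARα-TG CTLs had 0 CPM of it. Lmna did not follow Lmnb1 and Lbr. It stood at 198 CPM in cycling and 228 CPM in other WT CTLs, at 84.7 and 103 CPM in RARα-KO, and at 513 and 370 CPM in RARα-TG (15 cycling cells). The order of the genotypes for Lmna was the same in cycling and in other CTLs. Cycling cells are also deeper, at a median of 9700 UMIs in WT CTLs, and cells with more UMIs are more likely to show a UMI of Mki67 or Top2a.

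In cycling CD4 T cells Lmnb1 stood at 502 CPM in WT and 633 and 767 CPM in the KO and TG tumors, against 332, 253 and 449 CPM in the others. Lmnb1, Lbr and Emd were higher with ranges apart, against 12.3% of all genes, although the WT interval of Lbr and the WT and RARα-KO intervals of Emd held 0. Lmnb2 passed the filter through the cycling cells alone, on 13 UMIs, and is not counted. In MC38 or stromal cells Lmnb1 differed more by this split than in CTLs or CD4 T cells. It stood at 120, 95.3 and 142 CPM in cycling cells against 21.6, 21.7 and 12.3 CPM in the others (2 UMIs in RARα-TG). Carcinoma cells and stroma were not separated there, so cycle and cell type cannot be told apart. Lmnb1, Lmnb2, Emd and Sun2 were apart there, against 12.5% of all genes, although the RARα-KO intervals of Emd and Sun2 and the RARα-TG interval of Emd held 0 and the other RARα-TG cells had 0 UMIs of Lmnb2. Lmna in these cells stood at 985, 815 and 988 CPM in cycling and at 934, 615 and 760 CPM in other cells, so the ratio of Lmna to B-type lamins was 7.65 in cycling and 36.4 in other WT cells. The share of cycling cells was 21.3% for WT CTLs and 16.6% and 14.4% for those of the KO and TG tumors.

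**Figure D5:**
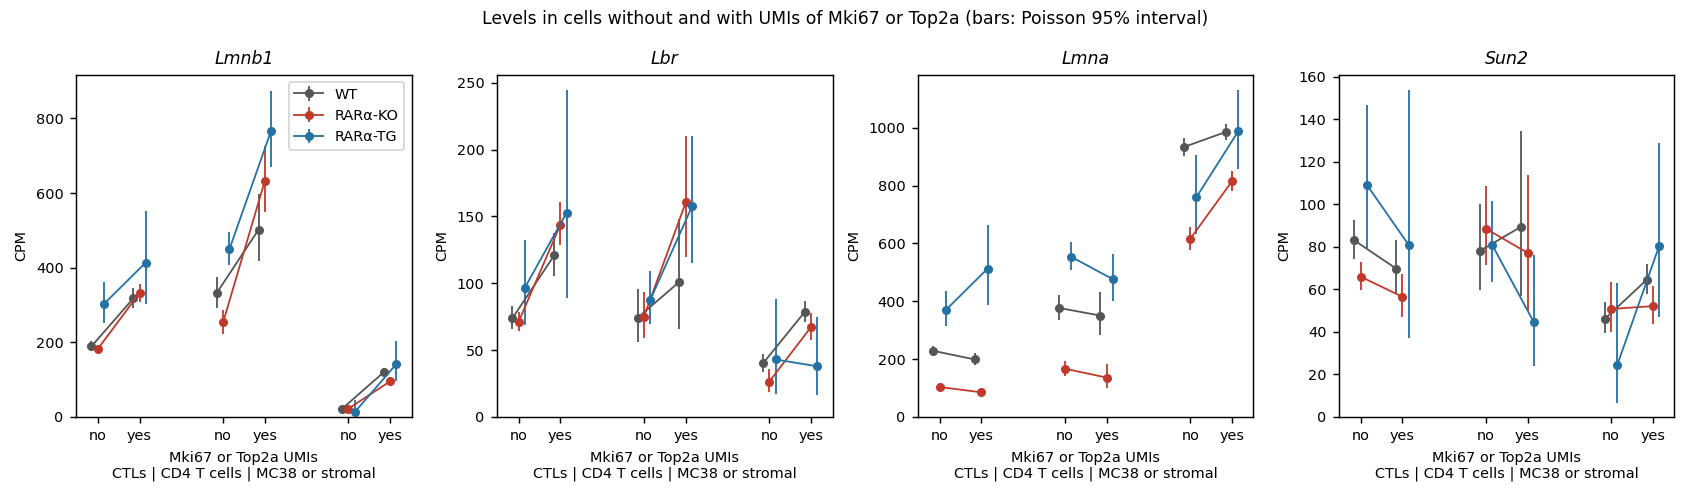
CPM of Lmnb1, Lbr, Lmna and Sun2 (linear axes from 0) in cells without and with UMIs of Mki67 or Top2a, for CTLs, CD4 T cells and MC38 or stromal cells of each tumor, with Poisson 95% intervals. Each line for Lmnb1 goes up from cells without to cells with such UMIs, while Lmna has RARα-KO lowest and RARα-TG highest in both kinds of CTLs and CD4 T cells, with overlapping WT and RARα-TG intervals in cycling CD4 T cells.

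CTLs of large clones had more Lmna and less Sun2 than CTLs whose clonotype was found in 1 cell, in both tumors that held such clones. In WT CTLs Lmna stood at 255 CPM in clonotypes of 10 or more cells (238 to 273), 148 CPM in those of 2 to 9 cells (129 to 169) and 121 CPM in those of 1 cell (96.0 to 151). In RARα-KO it stood at 117 CPM (107 to 128), 65.4 CPM (52.2 to 81.0) and 83.4 CPM (60.6 to 112), the first and last of which overlapped. The largest clones were highest in both tumors, and RARα-KO was below WT at each clone size, although the intervals of single-clonotype cells overlapped. No RARα-TG CTL belonged to a clonotype of that size, and the single-clonotype CTLs of that tumor stood at 396 CPM of Lmna (337 to 464), above every WT and RARα-KO value. Sun2 went the other way, at 76.3 CPM in large clones against 104 CPM in single cells in WT and at 62.9 against 110 CPM in RARα-KO, with ranges apart (21% of all genes lower). Cells of 1 clonotype share a founder and are not independent of each other.

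Lists of other nuclear envelope genes held few called genes in CTLs. Of the nesprins (Syne1 to Syne4), 1 of 4 was compared and 0 were called. Of the LEM domain proteins and chromatin tethers, 5 of 6 were compared, of the enzymes that process prelamin A 3 of 5, and of other inner membrane and lumen proteins 6 of 9, and 0 were called in either genotype. The median log2 ratios of these 3 lists were -0.09, 0.06 and -0.05 in RARα-KO (0.02 over all genes) and 0.13, -0.15 and 0.45 in RARα-TG. Of the genes that reseal the envelope, all 6 were compared, and 1 was higher in RARα-TG (Vps4a, an ATPase that takes ESCRT filaments apart, with a log2 ratio of 0.65, against 9.95% of all genes) and 0 in RARα-KO. Of the nuclear pore genes, 18 of the 25 present were compared. In RARα-KO 1 was higher, Aaas, at 34.6 against 19.3 CPM (0.85), against 4.11% of all genes. In RARα-TG 4 were higher and 0 lower (9.95% and 8.66% of all genes), with a median log2 ratio of 0.44 against -0.00 over all genes. They were Nup153, a basket protein that binds lamins (93.4 against 46.8 CPM), Nup210, a pore membrane protein (91.4 CPM, log2 ratio 0.87), and Nup62 and Ahctf1 with 30 UMIs each. Nup210 went the other way in RARα-TG CD4 T cells, at 39.0 against 63.5 CPM (-0.70), and in RARα-KO CD4 T cells 2 of 16 nuclear pore genes were higher, Nup188 and Nup214, on 28 and 50 UMIs (3.41% of all genes). In MC38 or stromal cells the nuclear pore genes of RARα-TG went the other way, with 1 of 24 higher (Ahctf1) and 4 lower (Nup37, Nup85, Nup133 and Aaas, each on 10 or fewer RARα-TG UMIs), against 5.44% and 4.75% of all genes, and a median log2 ratio of -0.45.

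The genes most like a member over the 11 T cell clusters were found by the correlation of log2(CPM + 1) among 2876 genes. For Lmna they were Sfr1 (r = 0.89), Anp32a (0.89), Cd74 (0.89), Drap1 (0.89) and Rara (0.88). These values rest on 11 clusters of 1 library that differ in genotype, cluster 16 being 278 RARα-TG cells of 315, so genotype and T cell state are joined in them. Within 1 genotype at a time, r between Lmna and Rara was 0.75 over 10 clusters of WT, 0.72 over 10 of RARα-KO and 0.90 over 6 of RARα-TG. The r between Lmna and Lmnb1 was 0.36, 0.56 and 0.62 there. Rara was picked by its r over these same clusters, so its values within genotypes are no separate check. For Lmnb1 the most alike were Lin54, H3f3a, Baz1b and Donson, with r from 0.84 to 0.86. Among the members, r with Lmna was 0.66 for Lmnb1, 0.59 for Emd, 0.33 for Sun2 and 0.21 for Lbr. Of the genes most like Lmna, Anp32a was also lower in RARα-KO CD4 T cells (-0.67, called), Cd74, the invariant chain of MHC class II, was lower in CTLs of both RARα-KO (20.7 CPM) and RARα-TG (31.1 CPM) than in those of WT (62.3 CPM), and Sfr1 was within a fold of 1.5 in CTLs, CD4 T cells and macrophages of both genotypes.

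The remaining immune cells extended the range of lamin levels. The neutrophil-like cluster, led by S100a9, S100a8 and G0s2, had 5 UMIs of Lmna in 57 cells (43.9 CPM, 14.2 to 102) and 118 UMIs of Lmnb1 (1035 CPM, 857 to 1240), the highest Lmnb1 and the lowest ratio of Lmna to B-type lamins, 0.0424, of all 19 clusters with the genotypes summed. Lmnb1 was high in each tumor there (958, 1041 and 1099 CPM) with overlapping intervals. A cluster led by Il12b, Il4i1 and Ccl22 had 146 CPM of Lmna and 520 CPM of Lmnb1. It had no marker among its leading genes and was not named, although its summed dendritic markers were the highest of all 19 clusters. Its ratio of Lmna to B-type lamins was 0.118 in WT (0.061 to 0.211, 13 UMIs of Lmna). In RARα-KO the ratio was 0.259 (0.173 to 0.378, 35 UMIs of Lmna). RARα-KO was thus above WT by value in that cluster, with overlapping intervals. The neutrophil and NK clusters and a dendritic cluster with Siglech were taken as 1 group of host cells, which left out the Il12b cluster. In that group Lmna stood at 109 CPM in WT against 163 CPM in RARα-KO, with 411 CPM in RARα-TG. These values rest on 27, 27 and 88 UMIs, and RARα-KO was not below WT in them. The makeup of that group differed, with 37 neutrophil-like cells in RARα-KO and 10 in each of WT and RARα-TG. Those neutrophil-like cells gave few of the Lmna UMIs, 2 for WT, 2 for RARα-KO and 1 for RARα-TG. Of the 88 RARα-TG UMIs, 68 came from the NK cluster (14 RARα-TG cells), against 8 of the 27 WT UMIs (11 WT cells). RARα-KO had 5 NK cells, which gave most of its 27 UMIs and more than the 8 of the WT NK cells. Another 11 of the 27 came from the dendritic cluster. How far the makeup set these levels was not tested.

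By the mm10 build of the mouse genome (GRCm38), as the RefSeq table gives it, Lmna lies on chromosome 3 from 88481148 to 88509932, Lbr on chromosome 1, Lmnb2 on chromosome 10, Sun1 on chromosome 5, Sun2 on chromosome 15 and Emd on chromosome X. UMIs were summed over a gene, so the transcripts of lamin A and lamin C, and the part of the gene a read came from, were not separated.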

How the data were processed

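Gene, hashtag and T cell receptor libraries were read from the deposited UMI counts, which the authors made with Cell Ranger (version 6.1.0 per the submitters' processing notes, 4 per the file headers) on mm10/GRCm38. Barcodes were called as cells by an order of magnitude rule for 3000 expected cells and by a test against the background profile (500 or more UMIs, false discovery rate 0.01), and 5585 were kept. HTODemux (Seurat 5.3.0, R 4.3.3, quantile 0.99) gave 4925 cells 1 hashtag, 426 doublets and 234 negatives. Doublets within a genotype were not sought. Leiden clustering (scanpy 1.11.5, 2000 genes, 30 components, resolution 1) left out the members and receptor genes. Clusters with a clonotype in over 50% of cells were T cells.

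UMIs were summed per class and genotype and given as CPM with exact Poisson intervals, and ratios with exact binomial intervals (scipy 1.17.1). A gene was tested against the call rule with 0.1 or more UMIs per cell in either genotype, and called at a fold of 1.5 with an interval excluding 0. Counts of 0 were set to 3. Each genotype was 1 sample, so no p-values were computed. The calls and intervals were tested on simulated data. Alternatives were TMM scaling (edgeR 4.0.16), thinning to 1000 UMIs, other filters, gates and folds, and clonotype weights. The mean within clusters, the 5-fold hashtag margin and the macrophages without T cell UMIs were added after the data were seen. The members and lists were chosen with earlier results of these data known. All 7 members were named, and the 5 genes most like Lmna and Lmnb1 among those with 50 or more CPM, of which 1 is not reported here. No sequences of the members were used here.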

Additional observations from a re-analysis of the deposited data

How the results depend on the processing

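No paired analysis was possible because each genotype is 1 sample, and for the same reason no sample could be left out. No called ratio of a member changed its sign. Over all alternatives, the log2 ratio of Lmna to WT lay between -1.36 and -0.81 in RARα-KO CTLs and between 0.55 and 1.28 in RARα-TG CTLs, between -1.37 and -0.33 and between 0.47 and 0.77 in CD4 T cells, between -1.29 and -0.83 and between 0.12 and 0.54 in macrophages, and between -0.60 and -0.28 and between -0.30 and 0.21 in MC38 or stromal cells.

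Thinned to 1000 UMIs, Lmna was at -1.36 (RARα-KO) and 0.55 (RARα-TG) in CTLs, 0.77 in RARα-TG CD4 T cells, -0.83 and 0.12 in macrophages and 0.21 in RARα-TG MC38 or stromal cells, with 1 member higher in RARα-TG CD4 T cells (Lmna), 2 lower in RARα-KO macrophages (Lmna and Emd), and RARα-TG medians of 0.19 in macrophages and 1.26 in MC38 or stromal cells, the last on counts near the floor. Without cycling cells, Lmna was at 0.16 in RARα-TG macrophages and at -0.60 and -0.30 in MC38 or stromal cells, with 2 members higher in RARα-TG CTLs (Lmna and Lmnb1) and 2 lower in RARα-KO MC38 or stromal cells (Lmna and Lbr). Without the cluster led by Gzmd, Gzme and Gzmf, CTLs gave -1.35 and 0.63. With T cells taken by clonotype alone, RARα-KO CTLs gave -0.86. With clonotypes weighted equally, CTLs gave -0.81 and 1.26 and RARα-KO CD4 T cells -0.79. As a mean within clusters, CTLs gave -0.95 and 1.28 and CD4 T cells -0.33 and 0.73. With the leading hashtag 5 times the next, RARα-KO MC38 or stromal cells gave -0.28, and 1 member was lower in RARα-TG CD4 T cells (Sun1). At a fold of 2, 0 members were higher in RARα-TG CTLs. The cause of these differences was not tested.

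At a fold of 2 the share of all genes called in CTLs was 1.03% lower and 1.2% higher in RARα-KO and 5.43% and 4.67% in RARα-TG. With no filter on low counts the lower shares were 4.75% and 5.35%. Of the ratios of the other members, 479 stayed within the counting interval of the reported value and 42 did not. Of the ratios of Lmna to B-type lamins, thinned or without cycling cells, 10 stayed within that interval and 13 did not.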
